A study of Mus musculus with 29 samples.

Results

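Interferon-stimulated genes are the genes that cells switch on when they receive an interferon signal, and 39 of them were followed here in mouse hearts through heart failure and recovery. They were chosen by gene symbol from the deposited expression table, across all columns of heart failure (HF), recovery and control hearts. The table holds 29955 genes, and 38 of the 39 symbols were found in it. No row carried the symbol Ifi27, which has no value here. Of the 38 genes, 36 had a mean of at least 0.5 FPKM (fragments scaled by the length of the transcript and by the mapped total) over the 24 libraries used and entered the tests, among 12759 genes in all. Mx1 and Oas3 fell below that level.

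The study followed C57BL6 mice, which its methods name as C57BL/6J males, through an induction of heart failure and a recovery after it. From 3 months of age, the mice drank water that held L-NAME, which blocks nitric oxide synthase, at 0.3 mg/ml, together with NaCl at 1%, for 5 weeks, and from week 1 an osmotic pump that lasts 28 days delivered angiotensin II at 0.7 mg/kg/day. HF week 3 (2 libraries) and HF week 5 (3 libraries) were taken on these agents. Recovery began when plain water was given back and the pump had run out, and was sampled at weeks 7, 9, 11, 13 and 19 of the protocol (2, 2, 3, 2 and 5 libraries). Control week 19 (5 libraries) came from mice of the same age as Recovery week 19 that were not given the agents, and is the reference here. HF week 5 hearts were therefore 14 weeks younger than these controls, and the hearts of HF week 3 and Recovery weeks 7 to 13 were younger too. Age and treatment cannot be told apart in any comparison of these groups with Control week 19. The labels name whole heart and whole ventricle, and the methods name the apical part of the heart. The methods speak of 4 cohorts, but the cohort of each library is not labelled, and nothing pairs a library with an animal, so that the p-values measure the spread between these libraries.

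Interferons of type I bind a receptor made of Ifnar1 and Ifnar2, whose kinases activate Stat2. With Irf9 it takes part in a complex that binds the interferon-stimulated response element in promoters, whereas interferon gamma acts mainly at gamma-activated sites. The induced proteins sense viral RNA and DNA, block steps of the viral life cycle, modify proteins with the ubiquitin-like Isg15 and load peptides for antigen presentation. In the heart they are known from viral myocarditis and also from sterile injury, where nucleic acid from damaged cells can start the response. Because whole tissue was sequenced, fewer cells of a type and less RNA per cell cannot be told apart in any of the values.

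Some libraries stood apart. The number of genes with a value over 0 was 12816 in HF week 3 library 1 and 16339 to 18091 in the remaining 23, and Zbp1, Ifitm1 and the leukocyte gene Cd68 were listed at 0 in this HF week 3 library. The steps between low values gave depths relative to their mean of 0.716 to 1.37 for the other 23 libraries and none for HF week 3 library 1, and the absolute depth is unknown. The atrial genes Myl7, Sln and Myl4 summed to 7737 and 14050 FPKM in HF week 3 and to 39727, 415 and 15.5 FPKM in HF week 5 libraries 1, 2 and 3, against 3.04 to 13.4 FPKM in the control and recovery libraries. Nppa, the atrial natriuretic peptide, was listed at 0 in both HF week 3 libraries, at 42004, 2100 and 2214 FPKM in HF week 5 and at 81.1 to 345 FPKM in the controls. Of 11 cardiomyocyte markers, 4 were listed at 0 in every control library, among them Myh6, so that a value of 0 can be a failed estimate in this table. The log2 values of libraries of the same group correlated with r of 0.885 in HF week 3, 0.952 to 0.984 in HF week 5 and 0.962 to 0.991 in the other groups, and no pair of columns held the same values.

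At HF week 5, 13 of the 36 tested genes were higher than in Control week 19 and none was lower, with limma at a Benjamini-Hochberg adjusted p under 0.05. That is 36.1% of the genes, beside 11.6% of all genes called higher and 12.4% called lower in the same comparison. Their median log2 fold change was 0.63, and that of all genes tested was 0.04. Fold changes are differences of log2(FPKM + 0.5), which understates the change of genes with low values. At an unadjusted p under 0.05, 25 genes were higher, or 25 of 36 beside 18.8% of all genes. Of the 36 genes, 35 had a positive fold change, and Isg20, an RNA exonuclease, had a log2 fold change of -0.08. By role, 2 of 4 nucleic acid sensors, 2 of 5 transcription factors, 4 of 14 antiviral effectors, 0 of 2 genes of the Isg15 system, 0 of 4 interferon-inducible GTPases, 2 of 3 antigen processing genes and 3 of 4 other interferon-induced genes were called. At an unadjusted p under 0.05, limma called 1 of the 2 genes of the Isg15 system and 3 of the 4 GTPases higher in this comparison.

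The count of 13 moved with single libraries. It was 6 without HF week 5 library 3 and 8 without HF week 5 library 1, whereas it was 22 without HF week 5 library 2 and 23 without Control week 19 library 5. With any other control library left out it was 10 to 12, and with the HF week 3 libraries out of the fit it was 21. In each of these fits no gene was called lower. In a fit added after seeing the data, HF week 5 libraries 1 and 2, with the higher sums of Myl7, Sln and Myl4, were left out, and 14 genes were called higher. That fit assumes that the lone library 3 varies as the other groups do.

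**Figure D1:**
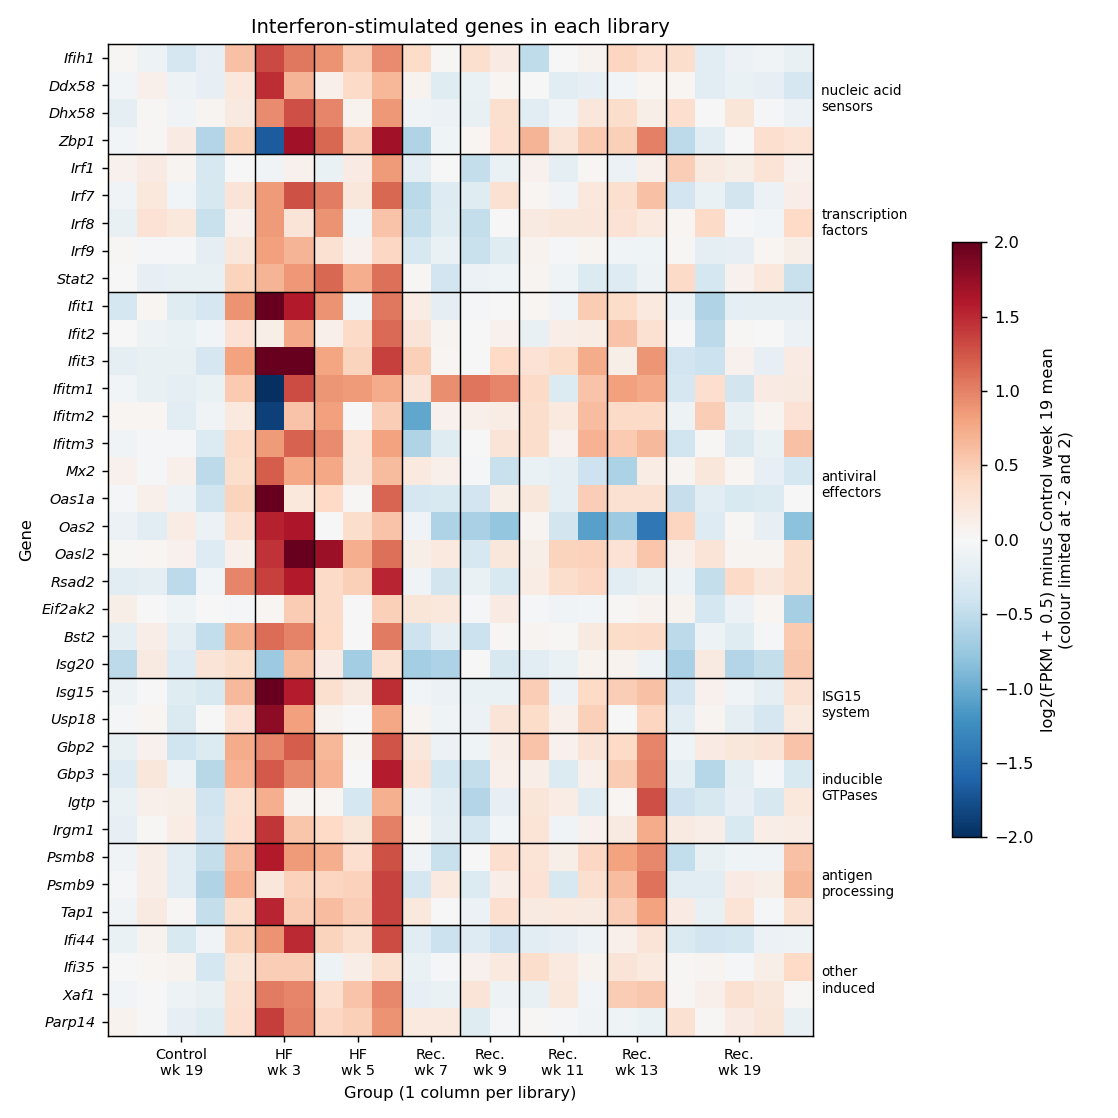
Log2(FPKM + 0.5) of the 36 tested genes minus the mean of the Control week 19 libraries, with 1 column per library, genes ordered by role and colour limited at -2 and 2. Red fills most rows in HF week 3 and in HF week 5 libraries 1 and 3, is paler in HF week 5 library 2 and in Control week 19 library 5, and is mostly absent from Recovery weeks 7 and 9.

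From HF week 5 to Recovery week 19, 18 of the 36 genes fell and none rose, that is 50% beside 12.0% of all genes called lower and 12.3% called higher. The median log2 fold change was -0.62 against -0.04 over all genes, and 26 genes were lower at an unadjusted p under 0.05, beside 19.3% of all genes. This comparison shares its HF week 5 libraries with the one above, so a high value in those libraries enters both. Rsad2 was called in the first comparison and not in the second, and Ddx58, Eif2ak2, Gbp3, Ifit1, Ifit2 and Irf9 were called in the second and not in the first. The count was 5 without HF week 5 library 3, was 11 without HF week 5 library 1, was 24 without HF week 5 library 2, and was 13 without both libraries with high sums of Myl7, Sln and Myl4. Marker genes of other cell types also fell in this comparison, namely 5 of 10 endothelial genes (Vwf, Egfl7, Emcn, Tek and Esam), 3 of 19 leukocyte genes (Cx3cr1, Ccr2 and Coro1a), 3 of 8 fibroblast genes (Postn, Col3a1 and Lum), the 4 smooth muscle genes, the 4 atrial genes, the 3 mesothelial genes and the 2 adipocyte genes tested. No gene of these lists was called higher. Of the leukocyte genes not called, Cd68 and Laptm5 were higher in every Recovery week 19 library than in every HF week 5 library. Their log2 fold changes were 1.46 ± 0.545 SE (adjusted p = 0.0566) and 1.11 ± 0.44 SE (adjusted p = 0.0713). Of 11 cardiomyocyte genes, 3 rose and 1 fell. The 1 that fell was Mb, which is listed at 0 in all 5 Recovery week 19 libraries, so that its fall can be a failed estimate. The part of these cell types in the result was not tested.

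In Recovery week 19 against Control week 19, limma called 0 of the 36 genes, beside 0.0235% of all genes, and 0 at an unadjusted p under 0.05, beside 2.88% of all genes. The log2 fold changes ran from -0.25 to 0.23 with a median of -0.04, 23 of them negative and 13 positive, and their standard errors from 0.0928 to 0.558. The smallest unadjusted p was 0.14, for Irf1. A missed threshold does not show that the levels were equal, and changes within these errors were not detectable.

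The transcription factors carry the signal from the receptor to the promoters. Stat2 is the subunit particular to the type I complex. Stat2 was at 4.48, 3.91, 3.97, 3.98 and 6.25 FPKM in the Control week 19 libraries, at 7.39 and 8.56 FPKM in HF week 3 and at 10.4, 7.69 and 10.1 FPKM in HF week 5. The 9 libraries of Recovery weeks 7 to 13 held 3.31 to 4.66 FPKM of Stat2, and those of Recovery week 19 held 5.92, 3.39, 4.75, 5.22 and 3.12 FPKM. All HF libraries were above all control and all recovery libraries for this gene, and Control week 19 library 5 was the highest control. Stat2 rose in HF week 5 against control (log2 fold change 0.99 ± 0.183 SE, adjusted p = 0.000971) and fell from HF week 5 to Recovery week 19 (log2 fold change -1.02 ± 0.183 SE, adjusted p = 0.000768). Irf7 is the factor that amplifies the transcription of type I interferon genes and is itself induced. For Irf7, the 5 control libraries read 10.6, 12.9, 10.7, 8.85 and 13.4 FPKM, the HF week 3 libraries 20.5 and 27.8 FPKM and the HF week 5 libraries 23.3, 13.2 and 25.3 FPKM. Irf7 was then at 7.55 to 17 FPKM from Recovery week 7 to week 13 and at 8.4, 10.2, 8.59, 10.2 and 12.3 FPKM in Recovery week 19. HF week 5 libraries 1 and 3 were well above the controls, whereas library 2 lay just below the highest control. Irf7 rose in HF week 5 against control (log2 fold change 0.80 ± 0.195 SE, adjusted p = 0.00623) and fell from HF week 5 to Recovery week 19 (log2 fold change -0.98 ± 0.195 SE, adjusted p = 0.00168). The rise of Irf7 was no longer called without HF week 5 library 1 (adjusted p = 0.0525). Irf9 is a DNA-binding subunit of the complex that holds Stat2. Control hearts of week 19 had 9.37, 9.07, 9, 8.01 and 10.9 FPKM of Irf9, against 16.6 and 15.1 FPKM at HF week 3 and 11.5, 9.83 and 12.4 FPKM at HF week 5. In recovery, Irf9 lay between 6.67 and 9.69 FPKM from week 7 to week 13, with 9.35, 8, 8.19, 9.44 and 10.1 FPKM at week 19. Its HF week 3 libraries were above every other library, and its HF week 5 libraries overlapped the controls. Irf9 did not pass the test in HF week 5 against control (log2 fold change 0.27 ± 0.107 SE, adjusted p = 0.0765) and fell from HF week 5 to Recovery week 19 (log2 fold change -0.30 ± 0.107 SE, adjusted p = 0.0453). The fall of Irf9 was no longer called without HF week 5 library 1 or 3 or Recovery week 19 library 1, 2, 3 or 4 (adjusted p = 0.0518 to 0.194). Irf1, which is induced mainly by interferon gamma, and Irf8, a factor of macrophages and dendritic cells, were not called in either comparison. Their log2 fold changes in HF week 5 against control were 0.29 ± 0.17 SE (adjusted p = 0.22) and 0.47 ± 0.206 SE (adjusted p = 0.105).

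**Figure D2:**
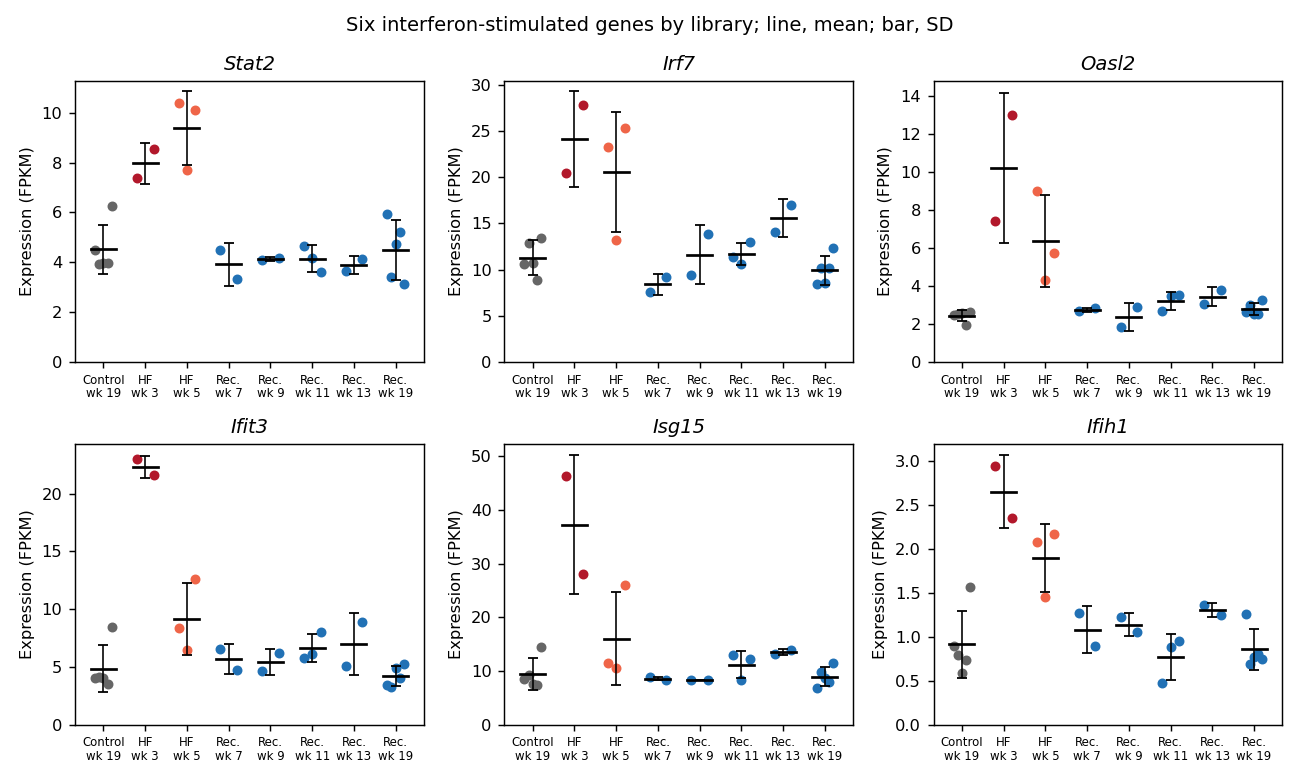
Expression in FPKM of Stat2, Irf7, Oasl2, Ifit3, Isg15 and Ifih1 by group, with 1 point per library, the group mean as a line and the SD as a bar. The HF points of Stat2 and Oasl2 lie above all control and recovery points, and the HF week 3 points of Isg15, 28.1 and 46.4 FPKM, lie above all others.

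The sensors detect nucleic acid inside the cell. Ifih1 encodes MDA5, a sensor of long double-stranded RNA. Ifih1 was at 0.896, 0.791, 0.587, 0.732 and 1.57 FPKM in the Control week 19 libraries, at 2.95 and 2.36 FPKM in HF week 3 and at 2.08, 1.46 and 2.17 FPKM in HF week 5. The 9 libraries of Recovery weeks 7 to 13 held 0.475 to 1.36 FPKM of Ifih1, and those of Recovery week 19 held 1.26, 0.696, 0.773, 0.808 and 0.744 FPKM. The lowest HF week 5 library was just below the highest control, and all Recovery week 19 libraries were below all HF libraries. Ifih1 rose in HF week 5 against control (log2 fold change 0.79 ± 0.198 SE, adjusted p = 0.00757) and fell from HF week 5 to Recovery week 19 (log2 fold change -0.83 ± 0.198 SE, adjusted p = 0.00558). Dhx58 encodes LGP2, a regulator of this sensing. For Dhx58, the 5 control libraries read 0.596, 0.773, 0.686, 0.805 and 0.916 FPKM, the HF week 3 libraries 1.92 and 2.55 FPKM and the HF week 5 libraries 1.96, 0.817 and 1.79 FPKM. Dhx58 was then at 0.573 to 1.09 FPKM from Recovery week 7 to week 13 and at 1.08, 0.764, 0.978, 0.722 and 0.648 FPKM in Recovery week 19. HF week 5 library 2 lay among the controls and the other HF libraries lay above them. Dhx58 rose in HF week 5 against control (log2 fold change 0.64 ± 0.191 SE, adjusted p = 0.02) and fell from HF week 5 to Recovery week 19 (log2 fold change -0.56 ± 0.191 SE, adjusted p = 0.0398). The rise of Dhx58 was no longer called without HF week 5 library 1 or 3 (adjusted p = 0.0965 to 0.154). The fall of Dhx58 was no longer called without HF week 5 library 1 or 3 or Recovery week 19 library 2, 4 or 5 (adjusted p = 0.071 to 0.241). Ddx58, which encodes the RNA sensor RIG-I, was at 0.38 ± 0.162 SE on the log2 scale in HF week 5 against control (adjusted p = 0.0934) and fell to Recovery week 19 (log2 fold change -0.54 ± 0.162 SE, adjusted p = 0.0206), a call lost without HF week 5 library 3 (adjusted p = 0.122). Zbp1, a sensor of Z-form nucleic acid, had 3.01, 1.71 and 4.58 FPKM in HF week 5 and 0.558 to 1.65 FPKM in the controls, so that the groups did not overlap. It was listed at 0 in HF week 3 library 1 and at 4.54 FPKM in library 2, and its log2 fold change of 1.11 ± 0.468 SE in HF week 5 against control did not pass (adjusted p = 0.0917).

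Among the antiviral effectors, Oasl2 belongs to the family of 2'-5' oligoadenylate synthetases, which sense double-stranded RNA. Control hearts of week 19 had 2.47, 2.51, 2.6, 1.94 and 2.62 FPKM of Oasl2, against 7.41 and 13 FPKM at HF week 3 and 9.02, 4.32 and 5.73 FPKM at HF week 5. In recovery, Oasl2 lay between 1.83 and 3.78 FPKM from week 7 to week 13, with 2.65, 2.99, 2.51, 2.54 and 3.24 FPKM at week 19. Every HF library was above every control and recovery library. Oasl2 rose in HF week 5 against control (log2 fold change 1.18 ± 0.195 SE, adjusted p = 0.000425) and fell from HF week 5 to Recovery week 19 (log2 fold change -1.01 ± 0.195 SE, adjusted p = 0.00136). Ifit3 belongs to the family of proteins with tetratricopeptide repeats that bind viral RNA. Ifit3 was at 4.02, 4.11, 4.07, 3.53 and 8.45 FPKM in the Control week 19 libraries, at 23 and 21.6 FPKM in HF week 3 and at 8.32, 6.47 and 12.6 FPKM in HF week 5. The 9 libraries of Recovery weeks 7 to 13 held 4.62 to 8.84 FPKM of Ifit3, and those of Recovery week 19 held 3.42, 3.28, 4.91, 4.07 and 5.23 FPKM. The HF week 3 libraries stood far above the rest, and HF week 5 libraries 1 and 2 lay between the 4 lower controls and Control week 19 library 5. Ifit3 rose in HF week 5 against control (log2 fold change 0.87 ± 0.25 SE, adjusted p = 0.0167) and fell from HF week 5 to Recovery week 19 (log2 fold change -1.01 ± 0.25 SE, adjusted p = 0.00694). The rise of Ifit3 was no longer called without HF week 5 library 1 or 3 (adjusted p = 0.0538 to 0.113). The fall of Ifit3 was no longer called without HF week 5 library 3 (adjusted p = 0.0521). Ifit1, of the same family, recognises RNA without the cap methylation of the host. For Ifit1, the 5 control libraries read 1.39, 1.98, 1.53, 1.4 and 3.97 FPKM, the HF week 3 libraries 9.42 and 6.7 FPKM and the HF week 5 libraries 4, 1.8 and 4.48 FPKM. Ifit1 was then at 1.63 to 2.93 FPKM from Recovery week 7 to week 13 and at 1.75, 1.09, 1.62, 1.62 and 1.61 FPKM in Recovery week 19. HF week 5 library 2 was within the range of the controls, and Control week 19 library 5 was close to HF week 5 library 1. Ifit1 did not pass the test in HF week 5 against control (log2 fold change 0.63 ± 0.265 SE, adjusted p = 0.0909) and fell from HF week 5 to Recovery week 19 (log2 fold change -0.88 ± 0.265 SE, adjusted p = 0.0212). The fall of Ifit1 was no longer called without HF week 5 library 1 or 3 or Recovery week 19 library 2 (adjusted p = 0.0509 to 0.118). Ifitm3 is a membrane protein that blocks the entry of viruses, and was the most abundant of the called genes. Control hearts of week 19 had 282, 290, 291, 245 and 383 FPKM of Ifitm3, against 532 and 670 FPKM at HF week 3 and 571, 356 and 516 FPKM at HF week 5. In recovery, Ifitm3 lay between 195 and 476 FPKM from week 7 to week 13, with 223, 301, 241, 268 and 445 FPKM at week 19. HF week 5 library 2 lay below the highest control and the highest Recovery week 19 library. Ifitm3 rose in HF week 5 against control (log2 fold change 0.68 ± 0.21 SE, adjusted p = 0.0253) and fell from HF week 5 to Recovery week 19 (log2 fold change -0.72 ± 0.21 SE, adjusted p = 0.0183). The rise of Ifitm3 was no longer called without Control week 19 library 4 or HF week 5 library 1 or 3 (adjusted p = 0.0618 to 0.154). The fall of Ifitm3 was no longer called without HF week 5 library 1 or 3 (adjusted p = 0.0672 to 0.115). Rsad2 encodes viperin, an enzyme that makes a chain-terminating nucleotide. Rsad2 was at 2.6, 2.68, 2, 2.98 and 6.56 FPKM in the Control week 19 libraries, at 8.82 and 10.3 FPKM in HF week 3 and at 4.21, 4.52 and 9.8 FPKM in HF week 5. The 9 libraries of Recovery weeks 7 to 13 held 2.28 to 4.28 FPKM of Rsad2, and those of Recovery week 19 held 2.86, 2.08, 4.17, 3.7 and 4.11 FPKM. Only library 3 of HF week 5 was above Control week 19 library 5. Rsad2 rose in HF week 5 against control (log2 fold change 0.79 ± 0.283 SE, adjusted p = 0.0469), and its difference between Recovery week 19 and HF week 5 did not pass the test (log2 fold change -0.72 ± 0.283 SE, adjusted p = 0.0702). The rise of Rsad2 was no longer called without Control week 19 library 1, 2, 3 or 4 or HF week 5 library 1 or 3 (adjusted p = 0.0511 to 0.306).

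The other 9 effectors tested had log2 fold changes in HF week 5 against control from -0.08 (Isg20) to 0.82 (Ifitm1), and none was called. Ifit2 and Eif2ak2, the kinase PKR that halts translation, fell from HF week 5 to Recovery week 19 (log2 fold changes -0.65 ± 0.2 SE, adjusted p = 0.023, and -0.50 ± 0.163 SE, adjusted p = 0.0314). The call of Ifit2 was lost without HF week 5 library 3 or Recovery week 19 library 2, and that of Eif2ak2 without HF week 5 library 1 or 3 or Recovery week 19 library 2 or 5, with adjusted p-values of up to 0.195 and 0.134. Mx1, a dynamin-like GTPase whose copy in C57BL/6J mice is known to be defective, was at 1.84 and 0.712 FPKM in HF week 3 and at 0.11 to 0.496 FPKM in the controls. Oas3 was at 1.48 and 0.216 FPKM in HF week 3 and at 0.0125 to 0.12 FPKM in the controls, so that in both untested genes the HF week 3 libraries were above the controls. The Ifitm, Oas, Ifit, Gbp and Mx genes belong to families of similar sequence, and how reads shared among copies were counted is not given in the sources used here, so their single values are uncertain.

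Isg15 encodes the ubiquitin-like protein of the response. For Isg15, the 5 control libraries read 8.46, 9.2, 7.6, 7.3 and 14.5 FPKM, the HF week 3 libraries 46.4 and 28.1 FPKM and the HF week 5 libraries 11.5, 10.5 and 26.1 FPKM. Isg15 was then at 8.25 to 13.9 FPKM from Recovery week 7 to week 13 and at 6.9, 9.76, 8.68, 7.89 and 11.4 FPKM in Recovery week 19. HF week 5 library 3 was well above the controls, and libraries 1 and 2 were below Control week 19 library 5. Isg15 passed the test neither in HF week 5 against control (log2 fold change 0.66 ± 0.259 SE, adjusted p = 0.0714) nor in Recovery week 19 against HF week 5 (log2 fold change -0.71 ± 0.259 SE, adjusted p = 0.0529). Usp18, which removes Isg15 from proteins and dampens the receptor, was not called either, with a log2 fold change of 0.28 ± 0.212 SE in HF week 5 (adjusted p = 0.356). The interferon-inducible GTPases, which act on the vacuoles of intracellular parasites and bacteria, had log2 fold changes of 0.13 (Igtp) to 0.76 (Gbp3) in HF week 5 against control and none was called. Gbp3 had 5.94, 3.5 and 11.4 FPKM in HF week 5 and 2.18 to 3.41 FPKM in Recovery week 19, and its fall was called (log2 fold change -1.01 ± 0.293 SE, adjusted p = 0.0172), except without HF week 5 library 1 or 3 (adjusted p of up to 0.143).

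The antigen processing genes serve the class I pathway. Tap1 is a subunit of the transporter that brings peptides into the endoplasmic reticulum. Control hearts of week 19 had 3.78, 4.58, 4.06, 2.72 and 5.22 FPKM of Tap1, against 12.4 and 5.86 FPKM at HF week 3 and 6.4, 5.8 and 11 FPKM at HF week 5. In recovery, Tap1 lay between 3.65 and 7.38 FPKM from week 7 to week 13, with 4.52, 3.54, 4.92, 3.88 and 5.04 FPKM at week 19. Its HF libraries were all above the control and the Recovery week 19 libraries. Tap1 rose in HF week 5 against control (log2 fold change 0.82 ± 0.224 SE, adjusted p = 0.0127) and fell from HF week 5 to Recovery week 19 (log2 fold change -0.71 ± 0.224 SE, adjusted p = 0.0264). The rise of Tap1 was no longer called without HF week 5 library 3 (adjusted p = 0.0996). The fall of Tap1 was no longer called without HF week 5 library 3 or Recovery week 19 library 2 or 4 (adjusted p = 0.0536 to 0.186). Psmb8 and Psmb9 are catalytic subunits of the immunoproteasome. Psmb8 was at 23.3, 26.8, 21, 17.3 and 37.4 FPKM in the Control week 19 libraries, at 73.8 and 44.2 FPKM in HF week 3 and at 40.7, 31 and 59.5 FPKM in HF week 5. The 9 libraries of Recovery weeks 7 to 13 held 17.7 to 47.6 FPKM of Psmb8, and those of Recovery week 19 held 17.2, 21.9, 22.9, 23.3 and 36.8 FPKM. HF week 5 library 2 was below Control week 19 library 5. Psmb8 rose in HF week 5 against control (log2 fold change 0.78 ± 0.25 SE, adjusted p = 0.0293) and fell from HF week 5 to Recovery week 19 (log2 fold change -0.82 ± 0.25 SE, adjusted p = 0.0225). The rise of Psmb8 was no longer called without Control week 19 library 1, 3 or 4 or HF week 5 library 1 or 3 (adjusted p = 0.0542 to 0.173). The fall of Psmb8 was no longer called without HF week 5 library 1 or 3 or Recovery week 19 library 1 (adjusted p = 0.0512 to 0.142). For Psmb9, the 5 control libraries read 17, 19.2, 15, 11.3 and 28.5 FPKM, the HF week 3 libraries 20.5 and 24.1 FPKM and the HF week 5 libraries 23.5, 24.2 and 44.9 FPKM. Psmb9 was then at 13.6 to 37.5 FPKM from Recovery week 7 to week 13 and at 14.9, 14.8, 19.5, 18.8 and 27.7 FPKM in Recovery week 19. Control week 19 library 5 was above HF week 5 libraries 1 and 2 here. Psmb9 passed the test neither in HF week 5 against control (log2 fold change 0.75 ± 0.273 SE, adjusted p = 0.0526) nor in Recovery week 19 against HF week 5 (log2 fold change -0.65 ± 0.273 SE, adjusted p = 0.0899). The genes Psmb9 and Tap1 start beside each other on opposite strands of chromosome 17, and whether strand was used in counting is not given in the sources used here.

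Of the remaining genes, Xaf1 is a factor that promotes apoptosis. Control hearts of week 19 had 5.19, 5.39, 5.01, 4.8 and 6.82 FPKM of Xaf1, against 11.7 and 11.1 FPKM at HF week 3 and 6.92, 8.3 and 11 FPKM at HF week 5. In recovery, Xaf1 lay between 4.76 and 8.05 FPKM from week 7 to week 13, with 5.47, 5.81, 6.78, 6.4 and 5.48 FPKM at week 19. The HF libraries were above all controls and above all Recovery week 19 libraries. Xaf1 rose in HF week 5 against control (log2 fold change 0.62 ± 0.138 SE, adjusted p = 0.0034) and fell from HF week 5 to Recovery week 19 (log2 fold change -0.49 ± 0.138 SE, adjusted p = 0.0145). The fall of Xaf1 was no longer called without HF week 5 library 3 (adjusted p = 0.115). Parp14 is an ADP-ribosyltransferase. Parp14 was at 2.31, 2.16, 1.9, 1.77 and 2.88 FPKM in the Control week 19 libraries, at 6.47 and 4.88 FPKM in HF week 3 and at 3.08, 3.24 and 4.47 FPKM in HF week 5. The 9 libraries of Recovery weeks 7 to 13 held 1.75 to 2.57 FPKM of Parp14, and those of Recovery week 19 held 2.79, 2.22, 2.5, 2.67 and 1.91 FPKM. Its HF libraries, from 3.08 FPKM upwards, were above all others in the course. Parp14 rose in HF week 5 against control (log2 fold change 0.60 ± 0.146 SE, adjusted p = 0.00639) and fell from HF week 5 to Recovery week 19 (log2 fold change -0.48 ± 0.146 SE, adjusted p = 0.0217). The fall of Parp14 was no longer called without HF week 5 library 3 (adjusted p = 0.141). Ifi44 is an induced protein of the cytoplasm. For Ifi44, the 5 control libraries read 0.768, 0.964, 0.623, 0.831 and 1.39 FPKM, the HF week 3 libraries 2.09 and 3.41 FPKM and the HF week 5 libraries 1.39, 1.24 and 2.95 FPKM. Ifi44 was then at 0.532 to 1.17 FPKM from Recovery week 7 to week 13 and at 0.641, 0.573, 0.591, 0.79 and 0.805 FPKM in Recovery week 19. Control week 19 library 5 reached the level of HF week 5 library 1, and the Recovery week 19 libraries were all below the HF libraries. Ifi44 rose in HF week 5 against control (log2 fold change 0.69 ± 0.204 SE, adjusted p = 0.0194) and fell from HF week 5 to Recovery week 19 (log2 fold change -0.94 ± 0.204 SE, adjusted p = 0.00315). The rise of Ifi44 was no longer called without Control week 19 library 3 or HF week 5 library 3 (adjusted p = 0.0515 to 0.168). Ifi35, which forms a cytoplasmic complex with Nmi, had a log2 fold change of 0.12 ± 0.126 SE in HF week 5 against control (adjusted p = 0.533).

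Promoters of the 39 genes were searched for the letters of the elements through which interferon signals act. RefSeq promoter windows of 300 bases, 250 before to 50 after the start of the gene in build GRCm38.p6, were found for 31 of the 39 genes, with 38 windows in all. GAAANNGAA, the core of the interferon-stimulated response element, was present on either strand in windows of 18 genes. It was in 47.4% of the 38 windows, beside 8.56% of all 32851 promoter windows. TTCNNNGAA, the gamma-activated site, was present in windows of 11 genes and in 28.9% of the 38 windows, beside 8.3% of all windows. Windows of 5 genes held both motifs, which overlapped each other in 2 of them, and those of 7 genes held neither. A match describes letters and is not a binding site. The 4 windows shown are those of the genes with a GAAANNGAA match and the smallest p in HF week 5 against control. They are written 5′ to 3′ on the strand of the gene, with the match to GAAANNGAA or its reverse complement in capitals. The window of Stat2 lies at chr10:128270248-128270547 (plus strand), that of Ifih1 at chr2:62646206-62646505 (minus strand), that of Ifit3 at chr19:34583279-34583578 (plus strand) and that of Ifi44 at chr3:151749861-151750160 (minus strand).
Stat2: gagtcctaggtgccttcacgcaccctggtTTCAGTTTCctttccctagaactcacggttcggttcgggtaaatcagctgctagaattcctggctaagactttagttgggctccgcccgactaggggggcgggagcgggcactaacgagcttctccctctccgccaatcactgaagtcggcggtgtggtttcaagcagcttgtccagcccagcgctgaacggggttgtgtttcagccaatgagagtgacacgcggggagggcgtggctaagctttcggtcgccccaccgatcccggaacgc
Ifih1: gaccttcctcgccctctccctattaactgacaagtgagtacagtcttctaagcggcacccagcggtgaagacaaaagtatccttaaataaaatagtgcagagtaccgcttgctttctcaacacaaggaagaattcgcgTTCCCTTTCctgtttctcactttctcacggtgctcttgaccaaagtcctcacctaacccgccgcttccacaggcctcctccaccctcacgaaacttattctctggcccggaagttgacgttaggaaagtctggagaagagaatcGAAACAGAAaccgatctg
Ifit3: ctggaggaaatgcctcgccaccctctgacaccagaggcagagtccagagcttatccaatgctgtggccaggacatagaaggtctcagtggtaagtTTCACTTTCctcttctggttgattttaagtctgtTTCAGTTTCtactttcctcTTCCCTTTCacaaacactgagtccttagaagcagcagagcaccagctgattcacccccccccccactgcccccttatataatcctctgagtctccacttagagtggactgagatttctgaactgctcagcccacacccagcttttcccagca
Ifi44: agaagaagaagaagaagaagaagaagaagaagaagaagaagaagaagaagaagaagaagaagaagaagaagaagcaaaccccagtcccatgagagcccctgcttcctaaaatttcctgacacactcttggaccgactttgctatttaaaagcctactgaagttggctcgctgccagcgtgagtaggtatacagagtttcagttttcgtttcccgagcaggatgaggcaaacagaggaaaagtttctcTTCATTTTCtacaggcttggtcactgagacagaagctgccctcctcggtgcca
Stat2 had 1 match, starting at base 30 of the window, and Ifit3 had 3, starting at bases 96, 130 and 149. Ifih1 had 2 matches, at bases 139 and 283, the second of them after the start of the gene, and Ifi44 had 1 that spans the start, at base 248. The gene with the smallest p in HF week 5 against control, Oasl2, and also Irf7, Xaf1 and Tap1, had neither letter pattern in their windows.

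The larger fold changes were seen at HF week 3. In these 2 libraries 26 of the 36 genes were higher than in Control week 19 and none was lower, beside 23.1% of all genes called higher and 27.6% called lower, with a median log2 fold change of 1.03 against -0.05 over all genes. Ifit3 led with 2.16 ± 0.286 SE on the log2 scale, or 4.48-fold (adjusted p = 9.04e-06), followed by Isg15 with 1.93 ± 0.297 SE (adjusted p = 4.44e-05), Oasl2 with 1.82 ± 0.224 SE (adjusted p = 3.94e-06) and Ifit1 with 1.81 ± 0.303 SE (adjusted p = 9.78e-05). Both genes of the Isg15 system, 3 of 4 sensors, 3 of 5 transcription factors, 9 of 14 effectors, 3 of 4 GTPases, 2 of 3 antigen processing genes and the 4 other genes were called. Without HF week 3 library 1, which has the many genes at 0, 21 genes were called higher, and without HF week 3 library 2, 27 higher and 3 lower. These fits leave 1 library at HF week 3, which is assumed to vary as the other groups do. Ifitm1 and Ifitm2 had negative log2 fold changes of -1.31 ± 0.738 SE and -0.65 ± 0.406 SE that did not pass, and their HF week 3 libraries read 0 and 18.4 FPKM and 85.9 and 468 FPKM.

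Between the stages of heart failure, 8 genes were lower at HF week 5 than at HF week 3 and none was higher, beside 8.28% of all genes called lower and 13.1% called higher. They were Ifit3, Oas2, Isg15, Usp18, Ifit1, Ddx58, Parp14 and Irf9, with log2 fold changes from -1.29 ± 0.312 SE (Ifit3, adjusted p = 0.012) to -0.49 ± 0.134 SE (Irf9, adjusted p = 0.0207). Oas2 and Usp18, named here after their values were seen, had 14.5 and 15.2 FPKM and 9.03 and 4.39 FPKM in HF week 3, against 4.62, 6.1 and 7.19 FPKM and 2.41, 2.29 and 4.21 FPKM in HF week 5, so that the stages did not overlap. In 8 of the 36 genes the log2 fold change was positive, from 0.02 (Eif2ak2) to 2.13 (Ifitm1, listed at 0 in HF week 3 library 1), and none of these passed. Stat2 was among them, with 7.97 ± 0.826 FPKM (SD, n = 2) at week 3 and 9.4 ± 1.49 FPKM (SD, n = 3) at week 5 (log2 fold change 0.22 ± 0.229 SE, adjusted p = 0.495). The count rested on few libraries, and was 0 without HF week 3 library 1, 13 (10 lower and 3 higher) without HF week 3 library 2 and 1 without HF week 5 library 2. A lone HF week 3 library was again assumed to vary as the other groups do. With only these groups in the fit limma called 0 of the genes.

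**Figure D3:**
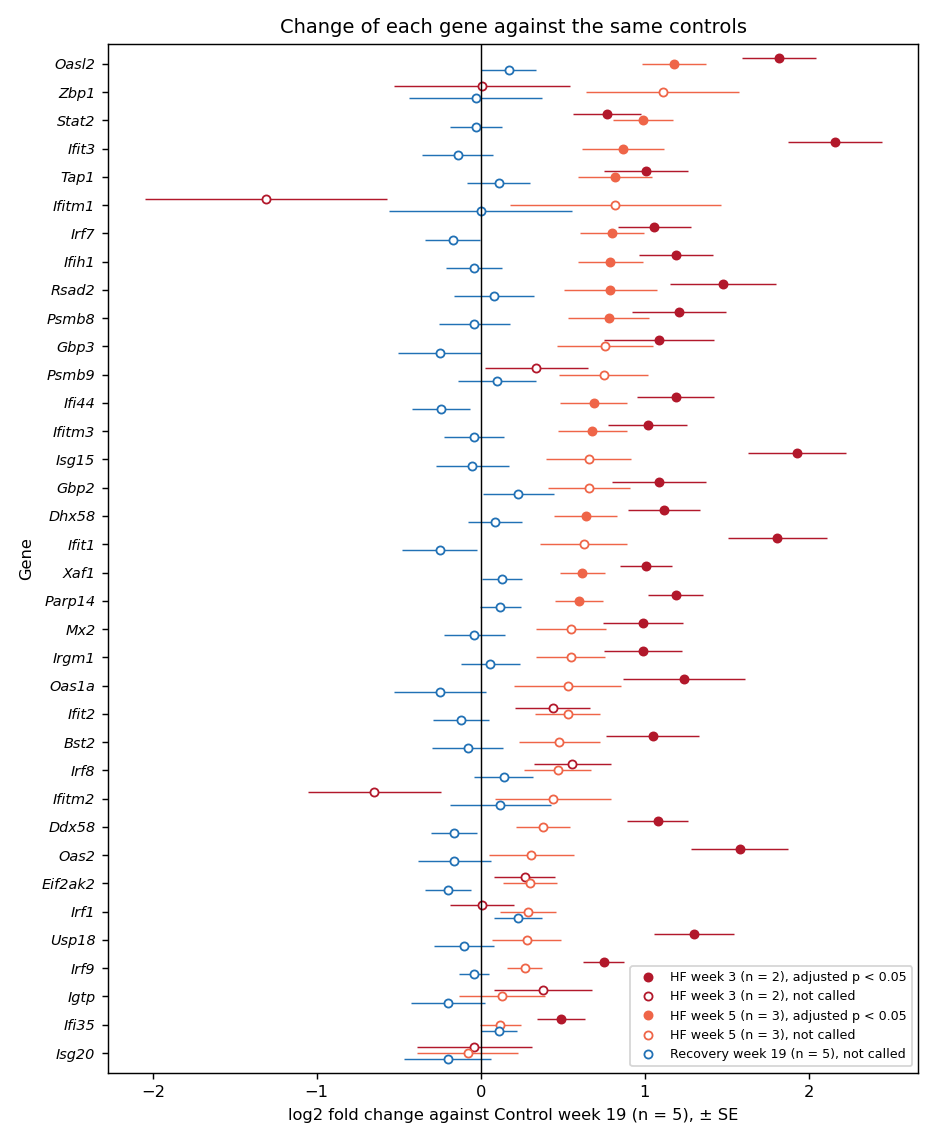
Log2 fold change with its SE of each of the 36 genes in HF week 3, HF week 5 and Recovery week 19 against the same 5 Control week 19 libraries, ordered by the value in HF week 5, with filled points for an adjusted p under 0.05. Most HF week 3 points lie to the right of the HF week 5 points, and the open points of Recovery week 19 lie between -0.25 and 0.23.

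At Recovery week 7, the first time point after the agents were withdrawn, 10 of the 36 genes were lower than at HF week 5. All 36 had a negative log2 fold change, with a median of -0.68, and none was called higher, beside 6.75% of all genes called lower and 8.05% called higher. The lower genes were Stat2 (-1.17 ± 0.229 SE, adjusted p = 0.00313), Irf7 (-1.20 ± 0.243 SE, adjusted p = 0.00376), Xaf1, Oasl2, Ifitm3, Ifi44, Irf9, Psmb8, Irf8 and Dhx58. They included 4 of the 5 transcription factors tested. The count was 1 without Recovery week 7 library 1, 2 without Recovery week 7 library 2, 5 without HF week 5 library 1 and 6 without HF week 5 library 3. A lone Recovery week 7 library was likewise assumed to vary as the other groups do. The count was 1 with no other groups in the fit and 16 without the HF week 3 libraries. Marker genes were lower at Recovery week 7 as well, with 5 of 10 endothelial genes (Vwf, Egfl7, Emcn, Tek and Pecam1), 6 of 19 leukocyte genes (Cx3cr1, Ccr2, Coro1a, Fcgr1, S100a8 and S100a9), 3 of 8 fibroblast, 3 of 4 smooth muscle, 2 of 3 mesothelial, both adipocyte and the 4 atrial genes tested. No gene of these lists was called higher. Of 11 cardiomyocyte genes, 3 were called higher, among them Myh6, which is listed at 0 in HF week 5. The part of these cell types was not tested. Against Control week 19, limma called 0 genes at Recovery week 7 and 0 at an unadjusted p under 0.05, beside 0.0470% and 3.61% of all genes.

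Through the later weeks no gene was called against Control week 19. At Recovery week 9 limma called 0 genes beside 0.0549% of all genes, and 2 at an unadjusted p under 0.05 beside 3.60% of all genes, both lower: Irf9 with -0.34 ± 0.123 SE and Oas2 with -0.72 ± 0.296 SE on the log2 scale. At Recovery week 11 it called 0, beside 0.149% of all genes, and 0 at an unadjusted p under 0.05, beside 8.45%. At Recovery week 13 it called 0, beside 0.0784% of all genes, but 8 genes were higher and 1 lower at an unadjusted p under 0.05, beside 10.4% of all genes in either direction. The 8 were Psmb8, Psmb9, Tap1, Xaf1, Ifitm3, Gbp2, Gbp3 and Igtp, among them all 3 antigen processing genes and 3 of the 4 GTPases, with log2 fold changes from 0.52 (Xaf1) to 0.88 (Psmb8) and adjusted p-values of 0.26 to 0.45. Psmb8 was at 42.6 and 47.6 FPKM there, above all 5 controls, and at 17.2 to 36.8 FPKM in Recovery week 19. The leukocyte markers summed to 256 and 368 FPKM in these Recovery week 13 libraries, against 114 to 206 FPKM in the controls, and none of the 19 tested was called. Among them Cd68 was at 21.5 and 25.1 FPKM against 4.26 to 8.5 FPKM, and Csf1r at 15.9 and 18.5 FPKM against 7.81 to 11.2 FPKM. Lyz2, the largest part of the sums, was at 165 and 250 FPKM against 67.5 to 141 FPKM. The part of these markers in the result was not tested. Oas2, the 1 lower gene, was at 2.63 and 1.41 FPKM in Recovery week 13 against 3.94 to 5.89 FPKM in the controls (log2 fold change -1.08 ± 0.296 SE, adjusted p = 0.209). Over the tested genes, the median log2 fold change against control was -0.09 at week 7, -0.05 at week 9, 0.09 at week 11, 0.38 at week 13 and -0.04 at week 19, with that of all genes between -0.01 and 0.01.

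The libraries of a group differed in the level of the whole set. The median difference of the 36 genes from the control mean was 1.01 and 0.92 on the log2 scale in HF week 3, and 0.43, 0.24 and 0.99 in HF week 5. In the controls it was -0.06, 0.04, -0.10, -0.27 and 0.35, and Control week 19 library 5 had 35 of the 36 genes above the control mean. Control week 19 library 5 was thus above HF week 5 library 2. In Recovery week 13 it was 0.30 and 0.36, and in the other recovery weeks -0.14 to 0.17.

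Markers of other cell types of the heart also differed between these libraries. The 10 endothelial markers summed to 1744 to 2109 FPKM in 4 controls and to 3612 FPKM in Control week 19 library 5, to 3680 and 3459 FPKM in HF week 3, to 2750, 2860 and 3784 FPKM in HF week 5, and to 1990 to 2776 FPKM in Recovery week 19, with none at 0. Most of that sum was Fabp4, a fatty acid carrier of capillary endothelium and adipocytes, with 1416 to 3202 FPKM in the controls. In HF week 5 against control, 5 of the 10 rose and none fell, beside 11.6% of all genes called higher and 12.4% called lower. In HF week 3, 8 rose and 1 fell, beside 23.1% of all genes called higher and 27.6% called lower. The same shares of all genes apply to the counts of the other cell types below. The 26 leukocyte markers in the table summed to 114 to 206 FPKM in the controls, 256 and 282 FPKM in HF week 3, 154 to 322 FPKM in HF week 5 and 174 to 361 FPKM in Recovery week 19. The largest part of these sums was Lyz2, with 67.5 to 141 FPKM in the controls and 137 to 170 FPKM in HF week 3. Of the 19 that were tested, 3 rose in HF week 5, or 15.8% beside 11.6% of all genes, and none fell. They were Cx3cr1 and Ccr2, chemokine receptors of monocytes, and Coro1a, an actin regulator of leukocytes. These had log2 fold changes of 0.90 ± 0.274, 0.91 ± 0.294 and 0.72 ± 0.246 SE and adjusted p-values of 0.0231, 0.0309 and 0.0395. In HF week 3, 6 of the 19 rose and 2 fell, Cd68 (log2 fold change -1.92 ± 0.624 SE, adjusted p = 0.0156) and Laptm5 (-2.17 ± 0.504 SE, adjusted p = 0.00164), beside 23.1% of all genes higher and 27.6% lower. Both genes that fell were listed at 0 in HF week 3 library 1. In library 2 Cd68 was at 6.4 FPKM, against 4.26 to 8.5 FPKM in the controls, and Laptm5 at 4.01 FPKM, against 4.64 to 8.69 FPKM. Ptprc, the general leukocyte antigen CD45, was at 0.0129 FPKM in HF week 3 library 1, where 10 of the 26 markers were at 0, and at 0.496 to 1.61 FPKM in the other libraries of the control, HF and Recovery week 19 groups. The 8 fibroblast markers summed to 253 to 360 FPKM in the controls, 740 and 747 FPKM in HF week 3, 357 to 707 FPKM in HF week 5 and 312 to 458 FPKM in Recovery week 19, and 6 of the 8 rose in HF week 5. The 4 smooth muscle markers summed to 69.8 to 99.2 FPKM in the controls, 185 and 147 FPKM in HF week 3 and 159, 227 and 135 FPKM in HF week 5, and 3 rose in HF week 5, Acta2, Tagln and Cnn1. The 3 mesothelial markers Msln, Upk3b and Wt1 summed to 1.74 to 3.28 FPKM in the controls, 35.8 and 158 FPKM in HF week 3, 59.4, 20.8 and 8.94 FPKM in HF week 5 and 1.03 to 2.46 FPKM in Recovery week 19. The 3 adipocyte markers, among them Adipoq and Cidec, summed to at most 0.226 FPKM in the controls, to 11.9 and 12.8 FPKM in HF week 3, to 25.4, 33.6 and 0.224 FPKM in HF week 5 and to at most 0.309 FPKM in Recovery week 19. The part of these cell types in the results was not tested.

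**Figure D4:**
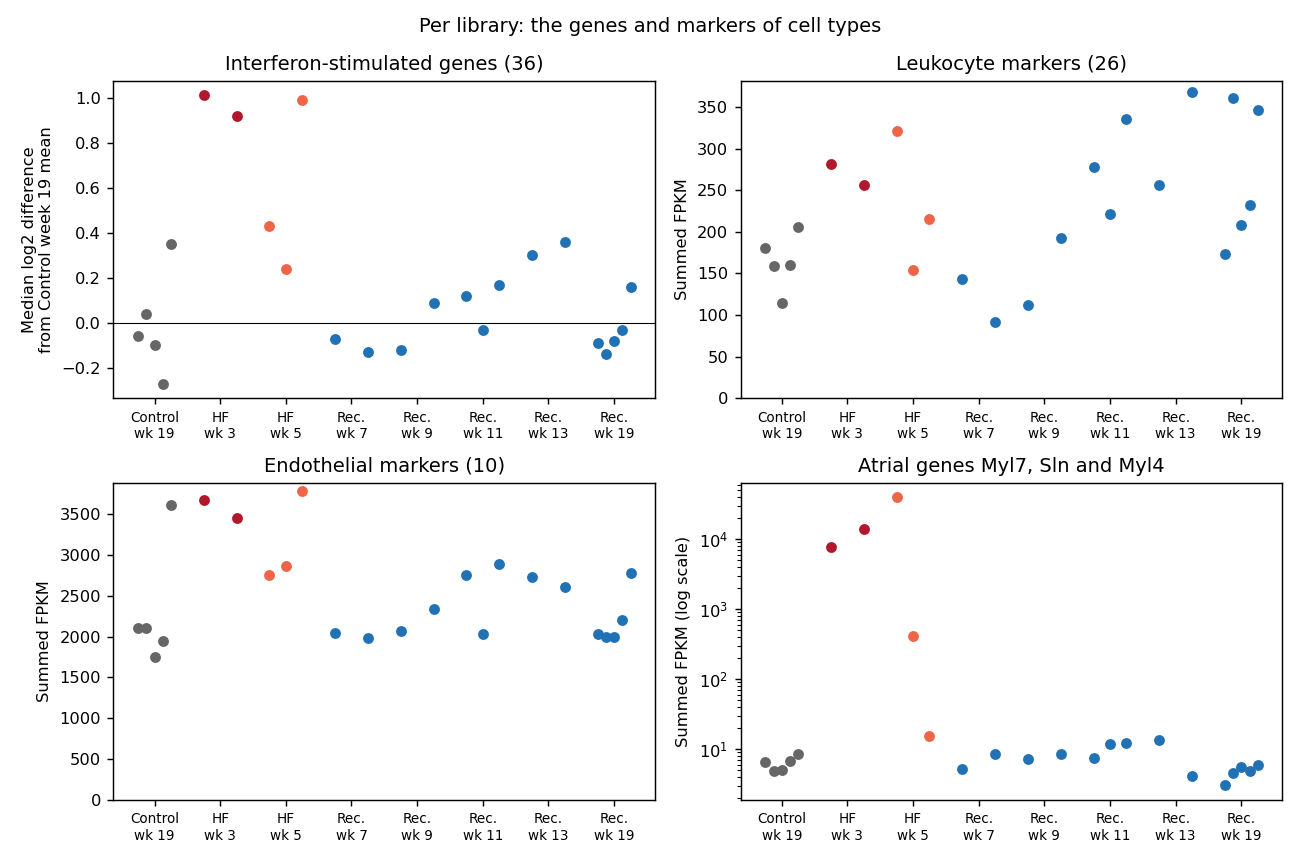
For each library, the median log2 difference of the 36 genes from the Control week 19 mean, and the summed FPKM of 26 leukocyte markers, 10 endothelial markers and the atrial genes Myl7, Sln and Myl4, the last on a log axis. Control week 19 library 5 is the highest control for both the 36 genes and the endothelial markers, and the leukocyte sums of Recovery weeks 11 to 19 overlap those of heart failure. Lyz2 is the largest part of the leukocyte sums.

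Of 15 interferon genes, 13 were in the table and none reached the level for testing. Of these, 8 were listed at 0 in all 24 libraries, and the highest value was 0.214 FPKM. Ifnb1 was above 0 in 2 HF libraries and 1 other, and reached 0.107 FPKM, and Ifng was above 0 in 1 HF library and 4 others and reached 0.0993 FPKM. The 9 receptor and kinase genes held 1 that rose and 1 that fell in HF week 5 against control, or 11.1% each way, which is near the 11.6% and 12.4% of all genes. Ifnar1, the first chain of the type I receptor, was at 6.43, 6.43 and 6.4 FPKM in HF week 5 and at 3.89 to 5.25 FPKM in the controls (log2 fold change 0.50 ± 0.132 SE, adjusted p = 0.0101). Ifngr2, the second chain of the interferon gamma receptor, was at 21.8, 51.4 and 50.6 FPKM and at 72.2 to 81.9 FPKM in the controls (log2 fold change -1.01 ± 0.201 SE, adjusted p = 0.00163). Neither gene overlapped between HF week 5 and the controls.

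Upstream of the interferons, 5 of 10 tested genes of sensing and induction rose and 1 fell in HF week 5 against control. In that comparison 11.6% of all genes were called higher and 12.4% lower. Mavs, the mitochondrial adaptor of the RNA sensors, fell (log2 fold change -0.82 ± 0.141 SE, adjusted p = 0.000587), with 8.85, 12.1 and 12.3 FPKM in HF week 5 and 16.2 to 23.1 FPKM in the controls. Ikbke, a kinase of Irf3 and Irf7, rose (0.98 ± 0.204 SE, adjusted p = 0.00235), and so did Tmem173, which encodes the DNA-sensing adaptor STING (0.72 ± 0.183 SE, adjusted p = 0.00799). Of 8 negative regulators, Adar, which edits double-stranded RNA, and Socs1, an inhibitor of receptor kinases, rose (0.66 ± 0.131 SE, adjusted p = 0.00165, and 0.84 ± 0.285 SE, adjusted p = 0.0381), and Ptpn11, a phosphatase, fell (-0.39 ± 0.136 SE, adjusted p = 0.0424). The calls among these 8 stand beside the same 11.6% of all genes higher and 12.4% lower. Of 43 tested interferon-induced genes outside the set, 10 rose and none fell in HF week 5, beside 11.6% of all genes higher and 12.4% lower. In HF week 3, 24 rose and 1 fell, beside 23.1% higher and 27.6% lower. The 3 with the smallest p in HF week 5 were Ifi27l2a (1.64 ± 0.344 SE, adjusted p = 0.00244), Ifi27l1 (0.85 ± 0.189 SE, adjusted p = 0.00345) and Trim30a (0.80 ± 0.185 SE, adjusted p = 0.00435). Ifi27l2a was at 644, 380 and 336 FPKM in HF week 5, above its 98.8 to 261 FPKM in the controls.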

How the data were processed

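RNA of 24 mouse heart libraries (8 groups) was sequenced as paired ends after poly(A) selection. The authors aligned the reads with TopHat2 to mm9 and deposited FPKM values per gene made with Cuffdiff; alignment used default parameters, and the annotation, the strand setting of the counting and the scaling between libraries are not given in the sources used here. Columns of the authors' own comparisons were not used. The table has 5 columns of Control week 5 for 4 labelled samples, and these 5 columns were not used; Recovery week 9 has 2 columns for 3 labelled samples. The 39 genes and all gene lists were chosen with earlier results of these data known.

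Values were tested as log2(FPKM + 0.5) where a gene's mean reached 0.5 FPKM, with limma 3.58.1 in R 4.3.3, a mean for each of 8 groups, 16 residual degrees of freedom and a trend of variance with level. Tests were two-sided, and a gene was called at a Benjamini-Hochberg adjusted p under 0.05 over the 12759 genes tested. Genes with values printed per library were the 14 with the smallest adjusted p in HF week 5 against Control week 19, plus Isg15, Ifit1 and Irf9; the others named were chosen after their values were seen. Libraries are numbered in column order. On simulated data for HF week 5 against Control week 19 over 12759 genes, 69% of genes changed by 1 and 96% of those changed by 2 on the log2 scale were called, and 0.08% of unchanged genes. Alternatives were other pseudocounts, filters, scalings, fits and thresholds, and leaving out each library. Promoters came from RefSeq. Python 3.11.15, pandas 2.3.3 and matplotlib 3.10.9 made the tables and plots.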

Additional observations from a re-analysis of the deposited data

Results flagged for a closer look

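In 8 of 72 sets of 5 libraries, 1 library stood apart from the other 4 by a gap that chance gives in about 1 of 20 sets. Control week 19 library 5 was the highest control for Stat2 with 6.25 FPKM (the others 3.91 to 4.48 FPKM), for Ifit3 with 8.45 FPKM (3.53 to 4.11 FPKM) and for Ifitm1 with 10.4 FPKM (6.15 to 6.84 FPKM). Control week 19 library 4 was the lowest for Oasl2 with 1.94 FPKM (2.47 to 2.62 FPKM). In Recovery week 19, library 2 was lowest for Ifit1 with 1.09 FPKM (1.61 to 1.75 FPKM) and Ifit2 with 1.08 FPKM (1.6 to 1.81 FPKM), library 3 was lowest for Irgm1 with 4.25 FPKM (5.94 to 6.16 FPKM), and library 1 was highest for Ifih1 with 1.26 FPKM (0.696 to 0.808 FPKM).

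The effects of HF week 5 and HF week 3 against the same controls differed by limma for 8 genes, with the smaller effect at week 5. The controls cancel in this difference, so that it repeats the comparison of HF week 5 with HF week 3 given above. There 8.28% of all genes were called lower. The log2 differences were -1.29 for Ifit3 (adjusted p = 0.012), -1.27 for Oas2 (adjusted p = 0.0148), -1.27 for Isg15 (adjusted p = 0.0149), -1.18 for Ifit1 (adjusted p = 0.0218), -1.02 for Usp18 (adjusted p = 0.016), -0.70 for Ddx58 (adjusted p = 0.0238), -0.60 for Parp14 (adjusted p = 0.0295) and -0.49 for Irf9 (adjusted p = 0.0207). None was called without HF week 3 library 1.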

How the results depend on the processing

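The direction of the single-gene fold changes held in the 558 values computed for the named genes under other settings, and 91 of these were no longer called. With each library left out in turn, 5 of the 13 rises from Control week 19 to HF week 5 and 5 of the 18 falls from HF week 5 to Recovery week 19 held throughout. Leaving out 1 library moved the count from 6 to 23 in the first comparison (8 and 22 among them), from 5 to 24 in the second (11 among them), from 0 to 13 in HF week 5 against HF week 3 (1 among them) and from 1 to 14 for Recovery week 7 against HF week 5 (2, 5 and 6 among them), and from 21 to 30 in HF week 3 against Control week 19, the 30 with 3 lower. It gave 0 in each Recovery week against Control week 19. At an unadjusted p under 0.05 the counts were 25 in HF week 5 against control, 13 in HF week 5 against HF week 3 (11 lower and 2 higher), 21 from HF week 5 to Recovery week 7, and, against control, 2 at Recovery week 9 and 9 at Recovery week 13. With only the groups compared in the fit they were 0 in HF week 5 against HF week 3, 1 from HF week 5 to Recovery week 7 and 1 at Recovery week 13 against control. Without the HF week 3 libraries they were 21 in HF week 5 against control and 16 in Recovery week 7 against HF week 5. The cause was not tested. Centring each library on its median left a median of -0.111 over all genes in HF week 3 against control, with 31 of the 36 genes above 0, and 35 of 36 in HF week 5. No paired analysis was possible because the columns carry no replicate letters. Control week 5 as the control was not run because it has 5 columns for 4 labelled samples, so that not every column can be one of its samples. Absolute depth is unknown, so that precision for low values cannot be stated.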
